A study of Mus musculus with 26 samples.

Results

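Kinesins are motor proteins that walk along microtubules, and the mouse genome carries a large family of them. The 43 genes described here are the protein-coding rows of a deposited count table whose symbols follow the Kif naming pattern, out of 56941 gene rows, of which 21606 are protein-coding. By textbook role, 14 of the 43 act in the mitotic spindle or in cytokinesis, 8 carry cargo along axons, 12 move other cargo or act on microtubules or in signalling, 6 belong to the cilium or the centriole, and 3 (Kif12, Kif19b and Kif28) were not assigned a role. The roles follow general knowledge of the family and were assigned with earlier results of these data known.

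All RNA came from neuron spheroids grown from the mouse stem cell line HBG3 mESC HB9::GFP, in which the promoter of HB9, a motor neuron transcription factor, drives a green reporter. The labels name its genotype only as heterozygous blastocysts. Every group shared this line, the differentiation with purmorphamine and retinoic acid followed by ciliary and glial derived neurotrophic factors, and seeding on fibrin around day 8. The groups were an actuated magnetic array (4 samples, moved at 4 Hz for 30 min each day), a static array that was never actuated (4), a high intensity (6) and a low intensity (6) biochemical treatment, and a biochemical control (6). The treatment protocol names myokine-infused medium, that is, medium conditioned by muscle, but the labels do not tie high or low intensity to stimulated or unstimulated muscle, so these groups are called by intensity alone. One stem cell line stands behind all samples, and whether replicates were separate differentiations is not stated, so p-values measure the spread between these samples, which may be technical.

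A dividing cell uses kinesins to push spindle poles apart, to align chromosomes and to build the midzone at which the daughter cells separate. A neuron has left the cell cycle and uses another set, chiefly the kinesin-1 motors (Kif5a, Kif5b, Kif5c), the kinesin-2 motors (Kif3a, Kif3b, Kif3c) and the kinesin-3 motors (Kif1a, Kif1b), to carry vesicles, mitochondria and cytoskeletal cargo from the soma towards the axon tip. Many mitotic genes share a promoter element, the cell cycle genes homology region (CHR, letters TTTGAA), which is bound by the complexes that repress these genes in resting cells and activate them before mitosis, and which often lies near a CCAAT box.

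Promoter sequence was matched by symbol to RefSeq windows from 250 bases before to 50 bases after each start site (mouse build GRCm38.p6), and 33 of the 43 kinesins had one. The letters TTTGAA on either strand (TTCAAA on the other) were found for 11 of the 13 mitotic kinesins with a window (84.6%), for 1 of 6 axonal transport kinesins, 1 of 5 of the cilium and centriole and 1 of 8 of the other cargo, microtubule and signalling kinesins, beside 20.2% of all 27025 genes with a window. A match began within 50 bases of the start site for 9 of those 11 mitotic genes, and also for the 1 axonal transport gene (Kif1a) and the 1 gene of other cargo (Kif26b) with the letters, beside 28.3% of all genes that held them. The CCAAT letters, which read as ATTGG on the opposite strand, were found for 9 of 13 mitotic and 3 of 6 axonal transport kinesins, beside 41.1% of all genes. In the kinesin windows 0 CHR matches shared a base with a CCAAT match. A match describes letters in a window and not a bound site.

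The windows below, from 110 bases before to 10 bases after the start site, show 5 mitotic kinesins with the element near the start and, for contrast, 2 axonal transport kinesins without either motif in the stretch shown. They were picked for that contrast. Capitals mark CHR and CCAAT letters on either strand.
Kif11, chr19:37376272-37376391, plus strand: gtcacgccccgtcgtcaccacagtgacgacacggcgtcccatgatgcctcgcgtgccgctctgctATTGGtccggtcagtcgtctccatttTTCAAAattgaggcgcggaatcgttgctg
Kif15, chr9:122950971-122951090, plus strand: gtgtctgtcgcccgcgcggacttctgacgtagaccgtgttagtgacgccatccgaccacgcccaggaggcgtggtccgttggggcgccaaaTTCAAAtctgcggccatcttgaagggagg
Kif22, chr7:127042411-127042530, minus strand: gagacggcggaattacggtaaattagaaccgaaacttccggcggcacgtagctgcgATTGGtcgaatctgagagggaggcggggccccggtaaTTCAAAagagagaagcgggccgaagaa
Kif23, chr9:61946790-61946909, minus strand: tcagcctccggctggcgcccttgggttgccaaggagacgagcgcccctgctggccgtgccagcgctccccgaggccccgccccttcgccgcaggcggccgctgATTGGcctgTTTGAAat
Kifc1, chr17:33890624-33890743, minus strand: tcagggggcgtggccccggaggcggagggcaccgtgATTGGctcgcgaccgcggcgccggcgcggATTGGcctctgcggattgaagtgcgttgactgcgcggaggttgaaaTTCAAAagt
Kif5c, chr2:49619176-49619295, plus strand: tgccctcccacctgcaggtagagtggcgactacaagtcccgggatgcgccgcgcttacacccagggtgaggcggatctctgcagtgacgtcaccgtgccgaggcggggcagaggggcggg
Kif3c, chr12:3365022-3365141, plus strand: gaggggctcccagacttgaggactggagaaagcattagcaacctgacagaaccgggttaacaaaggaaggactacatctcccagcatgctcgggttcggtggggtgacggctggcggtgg
Among the matched mitotic genes, Kif11 and Kif15 each carry the CHR letters starting 19 bases before the start site, and Kif23 carries an inverted CCAAT box and the CHR letters side by side at the start site itself.

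Of the 26 libraries, 5 held too few counts on protein-coding genes (at most 1000000) and were left out of the comparisons: replicate 4 of the controls, replicate 6 of low intensity, replicates 4 and 5 of high intensity and replicate 3 of the static array. Totals of the 21 libraries used ran from 1551334 to 13162635 counts. The array libraries were deeper (7269276 to 13162635) than the control and intensity libraries (1551334 to 3971348), so array and depth cannot be told apart where an array group is set against the controls. In the left-out libraries the kinesins together had 0 to 2956 counts. The labelled cell type was checked against its markers. All 6 neuronal markers were detected in every group, with summed levels of 2328 to 3606 CPM (counts per 1000000, scaled between libraries), and the 7 motor neuron markers summed to 70.6 to 162 CPM. Isl2, one of those 7, had too few counts to be fitted. Markers of other cell types were detected as well. The 6 astrocyte and oligodendrocyte markers summed to 1442 to 3537 CPM and the 6 fibroblast markers to 39.2 to 2533 CPM.

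Per length, the kinesin mRNA of these spheroids was mostly that of axonal transport motors. In the controls (n = 5) these 8 genes made up 80.3% ± 1.80 (SD) of the summed kinesin level in TPM (transcripts per 1000000, which allows for length), and the mitotic kinesins 2.69% ± 0.517. Kif5c, a kinesin-1 heavy chain enriched in motor neurons, had the highest level of all 43, with a lowest, median and highest TPM of 313, 505 and 694. Kif5a, its neuron-specific relative, followed at 112, 182 and 226 TPM, a range that overlaps those of Kif1a (117, 155 and 163) and Kif1b (109, 120 and 206). The other 4 transport motors had medians between 20.6 TPM (Kif3b) and 99.8 TPM (Kif3a).

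Outside the axonal group, Kif21a, which limits microtubule growth, was highest of the other cargo, microtubule and signalling kinesins with a median of 80.9 TPM, and Kif26a, which lacks motor activity, was lowest with 0.125 TPM. Kif7, a regulator of Hedgehog signalling at the cilium tip, led the cilium and centriole kinesins at 4.06 TPM, and Kif6 was lowest of them at 1.17 TPM. Of the mitotic kinesins Kif23 had the highest median, 15.1 TPM, but its control libraries spread from 0.691 to 23.7 TPM. Kif2b, a microtubule depolymerase of the kinetochore, had 12 counts in 4 of the 21 libraries, and with Kif12 (18 counts), Kif19b (6) and Kif28 (8) it did not pass the filter on low counts, which left 39 kinesins fitted.

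**Figure D1:**
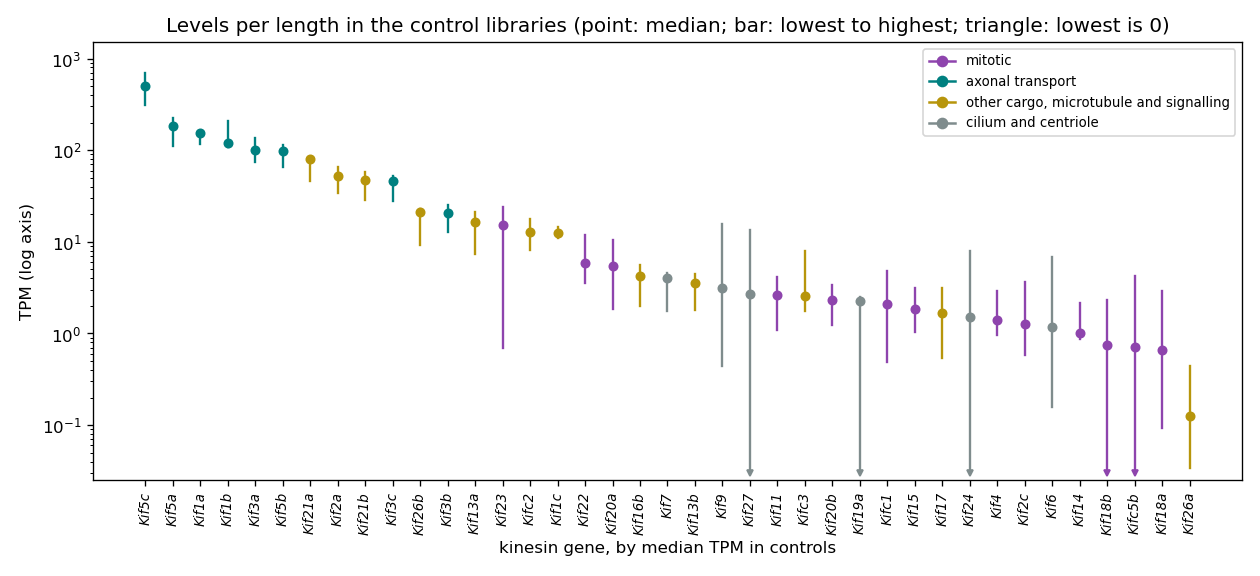
TPM (log axis) of each kinesin with a control median above 0 in the 5 control libraries, ordered by median and coloured by role. Points are medians, bars run from the lowest to the highest library, and a triangle marks a lowest value of 0. The top 6 places go to axonal transport kinesins, led by Kif5c at 505 TPM, while the mitotic kinesins lie at 15.1 TPM and below.

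The first question was how the kinesins differed between each biochemical treatment and its control. In both comparisons the 13 fitted mitotic kinesins all had higher fitted levels than in control. Against control, the median log2 fold change of the mitotic kinesins was 1.35 at high intensity (range 0.39 to 1.99) and 1.23 at low intensity (0.39 to 2.35), beside medians over all 14730 fitted genes of 0.0033 and -0.0083. In edgeR, Kif15 was the 1 kinesin past the adjusted threshold of 0.05 in either comparison. DESeq2 called 6 of the 13 mitotic kinesins at high and 5 at low intensity, beside 289 and 325 of all 14730 genes called higher. Limma voom called 0 and 0, and limma on log2(TPM + 1) 7 and 9, where that scale called 14.9% and 36.2% of all genes higher. At an unadjusted p under 0.05, 10 of 13 mitotic kinesins were higher at high intensity, where 8.67% of all genes were, and 8 of 13 at low intensity, where 8.57% of all genes were. The share of all genes called higher at an adjusted p under 0.05 was 0.305% at high and 0.441% at low intensity. The mitotic kinesins were grouped with these results in view, so the counts describe the group and are not a test of it. In bulk RNA, a larger share of dividing cells and more of these mRNAs per cell cannot be told apart.

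Kif15, a spindle motor that can hold the poles apart when Kif11 is inhibited, rose in both treatments. Its 5 control libraries had 4.31, 7.36, 8.07, 4.21 and 10.1 CPM. The 4 high intensity libraries had 22.9, 15.4, 38.4 and 13.5 CPM, and the 5 low intensity libraries 30.4, 12.4, 13.3, 13.3 and 27.2 CPM. Every treated library lay above every control library. The log2 fold change was 1.70 ± 0.36 (SE, 3.26-fold, edgeR adjusted p = 0.0416) at high intensity. At low intensity it was 1.50 ± 0.35 (2.84-fold, edgeR adjusted p = 0.0420).

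Both Kif15 calls lie close to the threshold and depend on single libraries. With each of the 21 libraries left out in turn, the high intensity call was kept in 9 fits and lost in 12, with edgeR adjusted p from 0.0149 to 0.195, and the low intensity call was kept in 7 and lost in 14, with edgeR adjusted p from 0.0209 to 0.140. At high intensity the highest adjusted p came without high intensity replicate 3, where the log2 fold change was 1.33. At low intensity it came without low intensity replicate 1 (1.27), followed by the fit without low intensity replicate 5 (1.35, edgeR adjusted p = 0.113). At high intensity the fits that ended the call were those leaving out replicate 1, 2 or 3 of that group, replicate 1, 2, 3 or 5 of the controls, replicate 1, 2 or 4 of the actuated or replicate 1 or 2 of the static array. The low intensity call was lost without replicate 1, 2 or 5 of that group, replicate 1, 2, 3 or 5 of the controls, any actuated library, replicate 1 or 2 of the static array or replicate 1 at high intensity. DESeq2 kept both calls, and both were lost in limma voom (adjusted p = 0.335 and 0.354), with all 26 libraries (edgeR adjusted p = 0.0812 and 0.237) and with only the groups compared (edgeR adjusted p = 0.143 and 0.124). In all these fits the direction was the same.

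Kif11, the motor that separates the spindle poles, had 13.5, 7.71, 23.8, 13.1 and 17.1 CPM in the controls. It had 29.5, 36.1, 81.3 and 19.8 CPM in the high intensity libraries and 45.1, 27.3, 19.1, 25.3 and 66.0 CPM in the low intensity libraries. One library of each treatment lay within the control range. The log2 fold change was 1.45 ± 0.40 (edgeR adjusted p = 0.0819) at high and 1.29 ± 0.38 (edgeR adjusted p = 0.0972) at low intensity.

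Kif23, which forms the centralspindlin complex of the midzone with Racgap1, had 3.74, 9.11, 9.23, 5.15 and 17.4 CPM in the controls. High intensity libraries had 25, 21.1, 64.2 and 9.37 CPM and low intensity libraries 36.5, 13.5, 10.2, 12.6 and 43.2 CPM, so that both treatments overlapped the highest control. Its log2 fold changes were 1.71 ± 0.48 (edgeR adjusted p = 0.0895) and 1.38 ± 0.47 (edgeR adjusted p = 0.142). Kif20a, which brings the Aurora B complex to the midzone, had 15.5, 8.06, 10.8, 10.3 and 9.85 CPM in the controls, 18.9, 8.11, 64.2 and 12.9 CPM at high and 43.2, 31.1, 9.20, 9.48 and 44.5 CPM at low intensity. Thus 1 high and 3 low intensity libraries had 31.1 CPM or more, while the others had 18.9 CPM or less. The log2 fold changes of Kif20a were 1.23 ± 0.48 (edgeR adjusted p = 0.197) and 1.35 ± 0.45 (edgeR adjusted p = 0.142).

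Kif4, a chromokinesin that binds chromosome arms, had 11.5, 7.01, 7.69, 7.49 and 8.70 CPM in the controls, 11.3, 16.6, 35.6 and 18.7 CPM at high and 18.5, 17.2, 11.2, 20.2 and 24.5 CPM at low intensity. In each treatment 1 library lay just below the highest control and the others lay above it. Its log2 fold changes, 1.25 ± 0.30 and 1.10 ± 0.29, stood just outside the threshold (edgeR adjusted p = 0.0538 and 0.0622). At high intensity 3 mitotic kinesins (Kif15, Kif22 and Kifc5b) had all libraries above all controls, beside 2.07% of all genes, and at low intensity Kif15 was the 1 gene of the 13 to do so, beside 1.28%. Kif22 and Kifc5b are named after their values were seen. Kifc5b and Kifc1 are near-identical copies whose reads the counting may have divided in either way, so the values of both are uncertain. Kifc5b also had 0 counts in control replicates 2 and 3. This allows up to 3 counts there, or 0.893 and 1.02 CPM on totals not scaled between libraries.

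**Figure D2:**
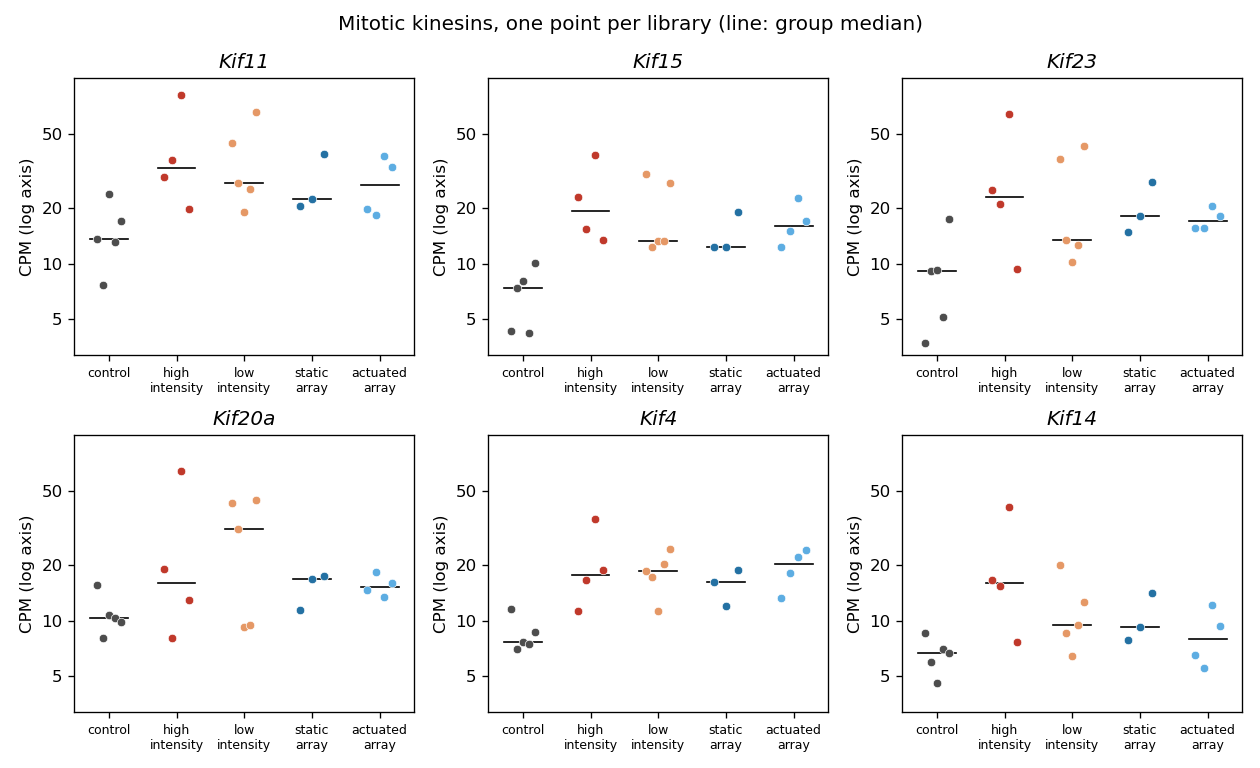
CPM (log axis) of 6 mitotic kinesins by group, with 1 point per library and a line at the group median. Kif15 is the gene whose high and low intensity libraries (12.4 CPM or more) all lie above the controls (10.1 CPM or less), and for each gene the highest point of the high intensity group is replicate 3.

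The libraries within each treatment differed widely, and they did so together across the mitotic kinesins. High intensity replicate 3 was the highest of its group for 13 of 13 mitotic kinesins and the lowest for 7 of 8 axonal transport kinesins. At low intensity, replicates 1 and 5 were highest for 7 and 6 of the 13, and replicate 3 was lowest for 9. Summed over the 14 mitotic kinesins, the controls had 82.8 to 115 CPM, high intensity 139 to 505 CPM and low intensity 107 to 350 CPM. Without high intensity replicate 3 the median log2 fold change of the mitotic kinesins at high intensity was 0.91, with 12 of 13 above 0 and 7 at p under 0.05. Over all leave-outs within the groups compared, the median stayed between 0.91 and 1.58 at high and between 0.97 and 1.39 at low intensity.

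The axonal transport kinesins had the opposite sign at a much smaller size. At high intensity 8 of 8 were below control on the CPM scale with a median log2 fold change of -0.25 (range -0.48 to -0.03), whereas on log2(TPM + 1) 8 of 8 were above control with a median of 0.35. That scale shifted all genes together, with a median over all fitted genes of 0.53 at high and 0.64 at low intensity, and relative to that shift the transport medians were -0.18 and -0.04. The mitotic medians relative to the same shift were 0.77 and 0.60. On the CPM scale 6 of 8 transport kinesins were lower at an unadjusted p under 0.05 at high intensity, where 7.28% of all genes were, and 0 of 8 passed the adjusted threshold in edgeR, where 0.156% of all genes did. DESeq2 called 1 of the 8 (Kif5a), beside 178 of all 14730 genes called lower, and limma voom called 0. At low intensity 7 of 8 were below control by CPM (median -0.16) but 8 of 8 above it on log2(TPM + 1) (median 0.60). There, 1 of 8 had an unadjusted p under 0.05 by CPM, where 6.61% of all genes were lower, and 0 passed the adjusted threshold, where 0.156% of all genes did, in edgeR, DESeq2 and limma voom alike. On log2(TPM + 1) none of the 8 was called at high intensity (0 of 8, with 1 at an unadjusted p under 0.05), and 4 of 8 were called higher at low intensity (Kif1a, Kif3a, Kif3b and Kif5b, limma adjusted p from 0.0251 to 0.0412). The shares of all genes called higher on that scale were 14.9% at high and 36.2% at low intensity.

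Kif5a, a kinesin-1 heavy chain whose mutations cause motor neuron disease, had 1225, 1439, 1288, 1358 and 1338 CPM in the controls. The high intensity libraries had 918, 972, 817 and 1114 CPM, all below the controls, which held for 1.49% of all genes. The low intensity libraries had 894, 997, 1352, 1017 and 1068 CPM, of which replicate 3 lay within the control range, and 0 of 8 transport kinesins were separated there, beside 0.971% of all genes. By CPM the log2 fold change of Kif5a was -0.48 ± 0.12 at high (edgeR adjusted p = 0.0691) and -0.32 ± 0.12 at low intensity (edgeR adjusted p = 0.172), and on log2(TPM + 1) the signs turned, to 0.084 and 0.40.

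Kif5c had 1495, 1386, 1306, 1408 and 1257 CPM in the controls, 893, 1132, 871 and 1274 CPM at high and 943, 1115, 1387, 1255 and 1128 CPM at low intensity. High intensity replicate 6 and low intensity replicate 3 lay within the control range and the other treated libraries lay below it. Its log2 fold changes were -0.39 ± 0.13 (edgeR adjusted p = 0.125) and -0.23 ± 0.12 (edgeR adjusted p = 0.356) by CPM, and 0.14 and 0.50 on log2(TPM + 1). Kif1a, the motor of synaptic vesicle precursors, had 1149, 1121, 1204, 1147 and 1191 CPM in the controls. It had 949.9, 941, 872 and 1124 CPM at high and 918, 1022, 1213, 1051 and 1012 CPM at low intensity. The log2 fold changes of Kif1a were -0.26 ± 0.09 (edgeR adjusted p = 0.162) and -0.16 ± 0.09 (edgeR adjusted p = 0.407) by CPM, and 0.32 and 0.66 on log2(TPM + 1). Kif3b, a kinesin-2 subunit and the lowest transport motor per length, had control values of 137 to 158 CPM against 112 to 149.6 CPM at high and 135 to 161 CPM at low intensity, ranges that overlap.

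**Figure D3:**
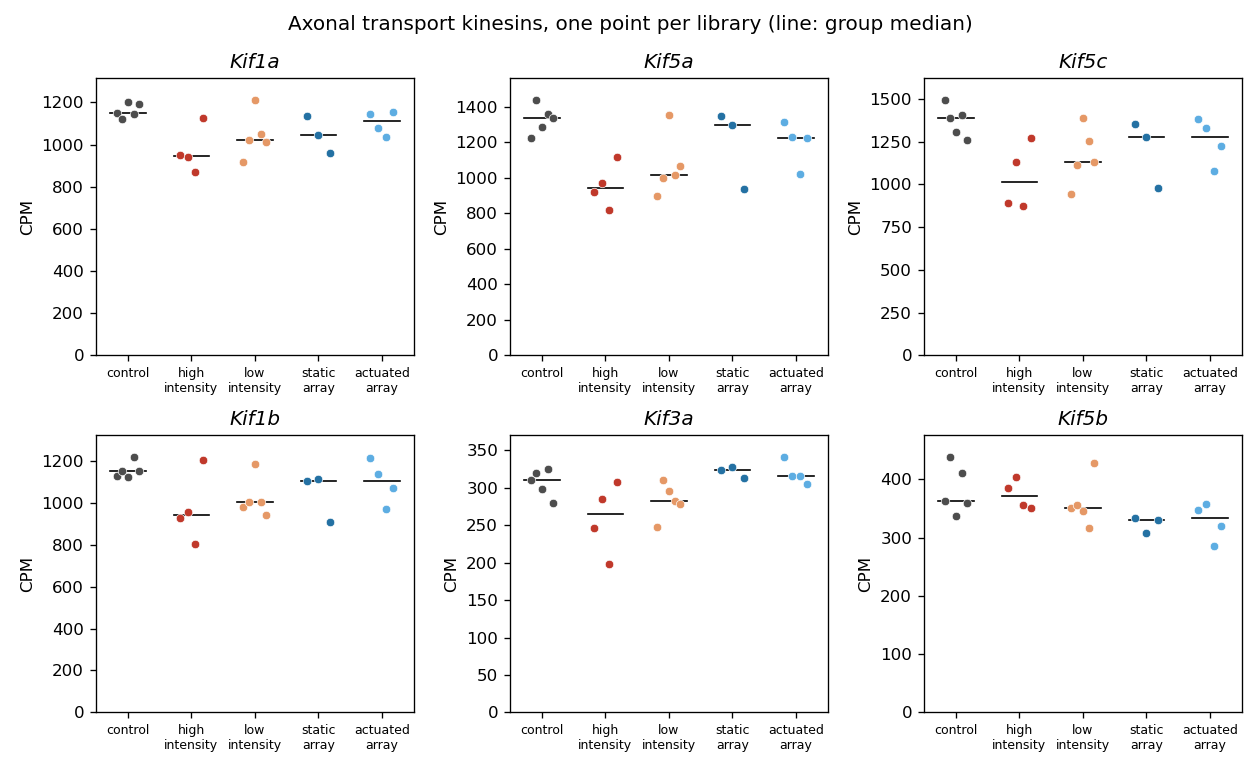
CPM of 6 axonal transport kinesins by group, with 1 point per library and a line at the group median (axes start at 0). The 4 high intensity libraries of Kif5a, at 817 to 1114 CPM, lie below its 5 controls at 1225 to 1439 CPM, and replicate 3 is the lowest high intensity library of Kif1a, Kif5a and Kif5c. On log2(TPM + 1) the sign of the difference from control turns for Kif1a, Kif5a and Kif5c.

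The contrast between the roles was also written as 1 value per library, the mean log2 CPM of the 13 fitted mitotic kinesins minus that of the 8 transport kinesins. It was -6.59 ± 0.28 (SD, n = 5) in control, -5.04 ± 0.97 (n = 4) at high intensity, -5.27 ± 0.79 (n = 5) at low intensity, -5.59 ± 0.38 (n = 3) on the static and -5.64 ± 0.36 (n = 4) on the actuated array. Control libraries ranged from -6.91 to -6.16, and the low intensity range, -6.25 to -4.32, was the 1 range that reached into theirs. High intensity exceeded control by 1.55, low intensity by 1.32 and the static array by 0.996. These values were built from genes chosen with results known and carry no test.

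**Figure D4:**
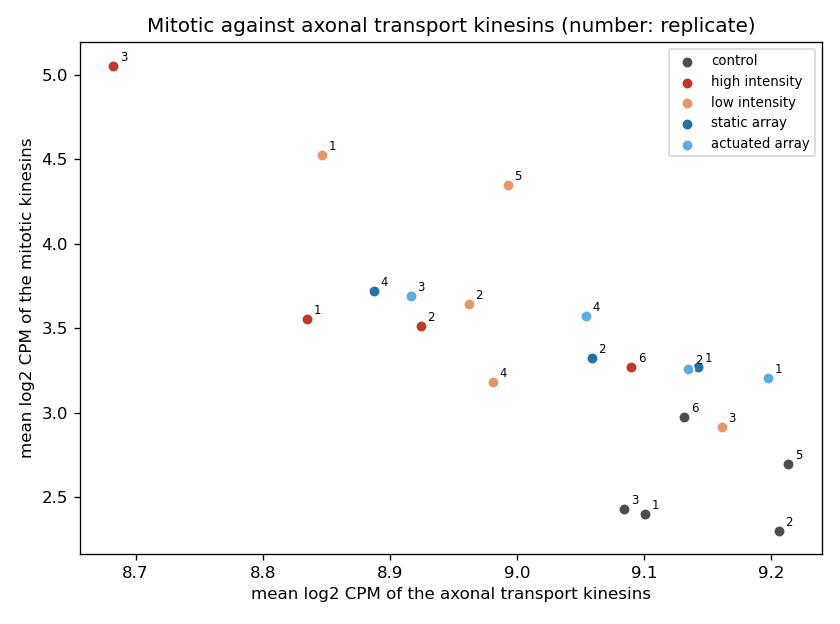
Mean log2 CPM of the 13 fitted mitotic kinesins (vertical) against that of the 8 axonal transport kinesins (horizontal), 1 point per library, numbered by replicate and coloured by group. Controls sit at the lower right, with mitotic means of 2.30 to 2.98, and high intensity replicate 3, with a mitotic mean of 5.05 and a transport mean of 8.68, is farthest from them.

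Of the 12 kinesins of other cargo, microtubules and signalling and the 6 of the cilium and centriole, 0 passed the adjusted threshold in any of the 5 comparisons in edgeR, DESeq2 or limma voom. Of the first group, 1 was higher and 2 were lower at an unadjusted p under 0.05 at high intensity, where 8.67% of all genes were higher and 7.28% lower. At low intensity 2 were higher and 2 lower, where 8.57% and 6.61% of all genes were. Their medians were near 0 by CPM (0.05 and -0.11), while on log2(TPM + 1) 12 of 12 were above control in both treatments. On that scale 3 of the 12 were called higher at high intensity, 4 at low intensity and 1 on the static array. The shares of all genes called higher on it were 14.9%, 36.2% and 4.54%. Kif7 of the cilium group was called higher on it at low intensity. Kif1c, a kinesin of vesicle transport, was called on that scale in all 3 comparisons (limma adjusted p = 0.00260, 0.000769 and 0.0322) and is named after its values were seen. By CPM it had 73.0 to 110 CPM in the controls, 90.6 to 173 CPM at high and 109 to 134 CPM at low intensity, with log2 fold changes of 0.49 ± 0.15 (edgeR adjusted p = 0.114) and 0.41 ± 0.14 (edgeR adjusted p = 0.163), and these ranges overlap. Kif21a had 539.5, 743, 606, 523 and 490.4 CPM in the controls and 443, 430.5, 325 and 541 CPM at high intensity, with a log2 fold change of -0.42 ± 0.15 by CPM (edgeR adjusted p = 0.152) and 0.20 on log2(TPM + 1). Kif26a had 0.350 to 3.77 CPM in the controls, of which the lowest is below the level that 3 counts give, and 3.27 to 7.70 CPM at high intensity. The 6 cilium and centriole kinesins were all at low levels, and 1 of them was higher at an unadjusted p under 0.05 at high and 0 at low intensity, beside 8.67% and 8.57% of all genes. Kif7 had 14.6 to 28 CPM in the controls, 17.4 to 27.7 CPM at high and 15.2 to 32.4 CPM at low intensity. Kif6 had 0.350 to 9.78 CPM in the controls and 2.04 to 8.83 CPM at high intensity, so neither gene's groups separated.

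**Figure D5:**
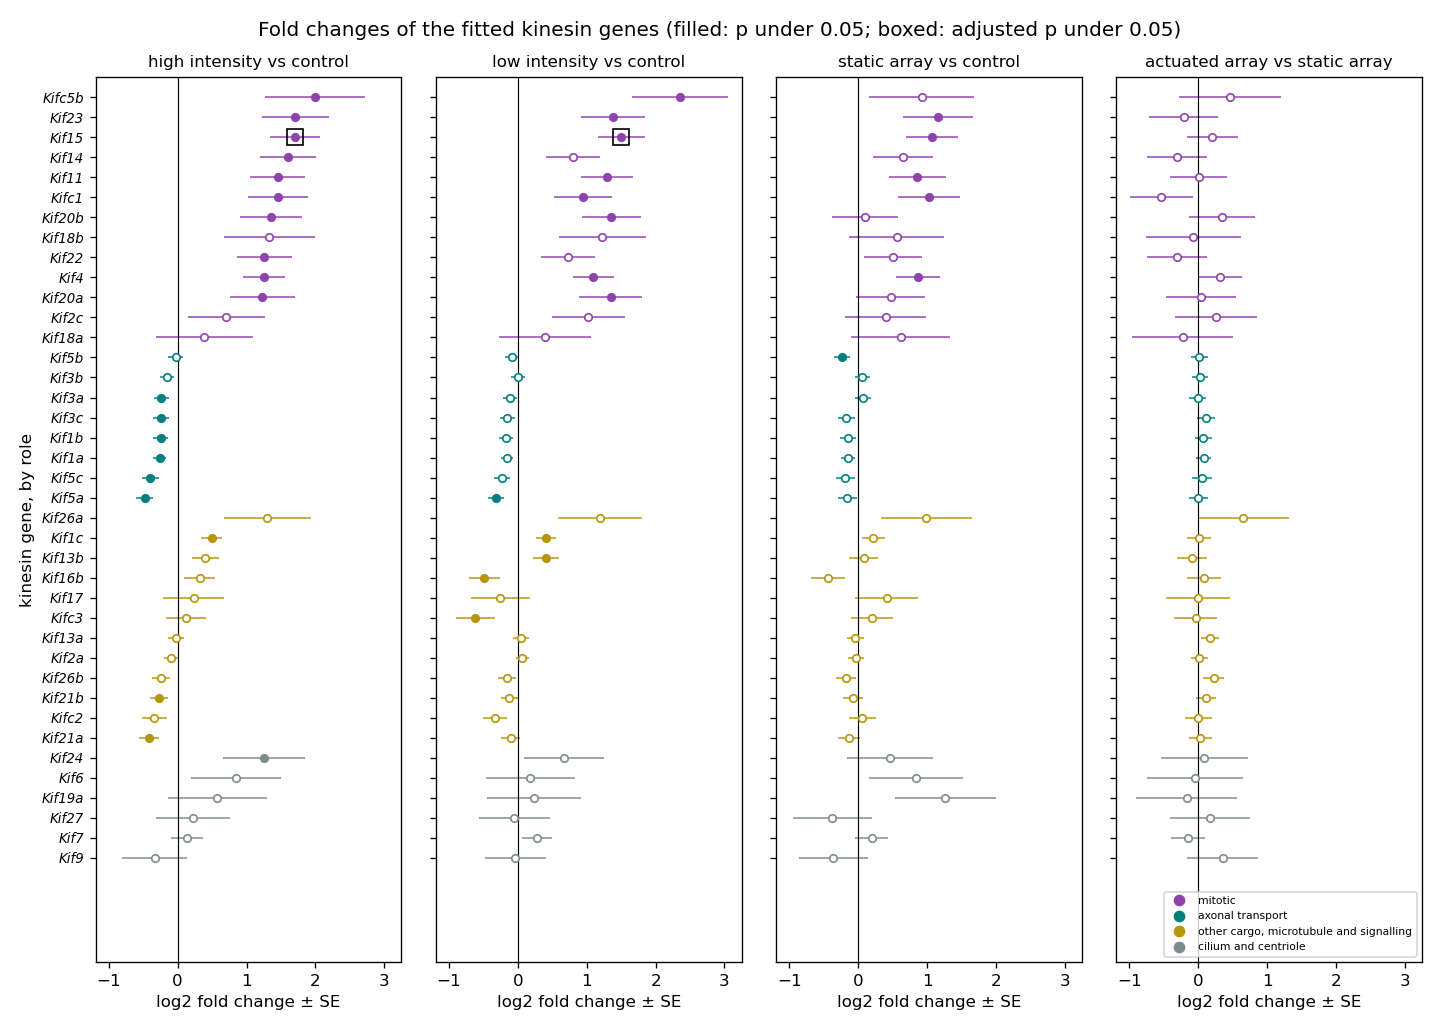
Log2 fold change with its SE of the 39 fitted kinesins, ordered by role, in 4 of the comparisons. Filled points have an unadjusted p under 0.05 and boxes mark an adjusted p under 0.05 (edgeR). The 13 mitotic kinesins lie right of 0 against control in the first 3 panels, the boxes fall on Kif15 alone, and the transport kinesins lie at or left of 0 at high intensity by CPM, a sign that turns on log2(TPM + 1).

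Between the high and the low intensity groups the mitotic kinesins did not separate. Their median log2 fold change was 0.16, with 8 above and 5 below 0, and it changed sign to -0.38 without high intensity replicate 3. None of the 39 kinesins passed the adjusted threshold in edgeR (0 of 39, as for 0% of all genes), and DESeq2 and limma voom called 0 as well. At an unadjusted p under 0.05, 2 were higher and 1 lower, where 3.62% and 4.06% of all genes were. The smallest p was that of Kif16b, a motor of early endosomes. It had 40.6, 32.0, 36.4 and 30.6 CPM at high intensity and 16.1, 18, 23.5, 18.3 and 23.8 CPM at low intensity, which did not overlap, beside 1.28% of all genes. Its log2 fold change was 0.81 ± 0.23 (edgeR adjusted p = 0.338), and the controls, at 15.9 to 41.0 CPM, spanned both groups. Kifc3, a minus-end motor linked to cell junctions, had 11.1, 11.8, 18.8 and 15.2 CPM at high and 6.92, 7.49, 11.2, 8.22 and 8.50 CPM at low intensity, and its log2 fold change was 0.74 ± 0.30 (edgeR adjusted p = 0.584).

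The static array was set against the controls, although the arms differ in depth as well as in the array. The 13 mitotic kinesins were again above control, with a median log2 fold change of 0.65 (range 0.10 to 1.16), and 12 of 13 were above it on log2(TPM + 1). None passed the adjusted threshold in edgeR, DESeq2 or limma voom, and 3 of 13 did in limma on log2(TPM + 1). That scale called 4.54% of all genes higher against control. In edgeR 0.299% of all genes were called higher and 0.414% lower. At an unadjusted p under 0.05, 5 of 13 were higher, where 6.1% of all genes were, and leaving out single libraries of these groups gave 0 to 5. Kif15 had 12.3, 12.3 and 19.0 CPM on the static array, all above the controls, and its log2 fold change was 1.08 ± 0.37 (edgeR adjusted p = 0.190). Kif4 had 16.2, 12.1 and 18.7 CPM there, also above every control, with 0.87 ± 0.32 (edgeR adjusted p = 0.212). Those were the 2 mitotic kinesins without overlap, beside 4.52% of all genes. The 8 transport kinesins had a median of -0.15 by CPM and 0.37 on log2(TPM + 1). One of them, Kif5b, the kinesin-1 heavy chain found in most tissues, was lower at an unadjusted p under 0.05 (by CPM -0.24 ± 0.11, edgeR adjusted p = 0.390, and 0.32 on log2(TPM + 1)), where 6.46% of all genes were, and 2 of 8 (Kif1b and Kif5b) lay below all controls, beside 3.62%. The high, low and static comparisons share the same 5 control libraries, so their fold changes are not independent of each other.

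The actuated and the static array were compared to ask what movement of the matrix added. No kinesin passed a test threshold. Actuated against static, 0 of 39 kinesins passed the adjusted threshold and 0 had an unadjusted p under 0.05 in edgeR, where 0% of all genes passed the first and 0.17% (higher) and 0.21% (lower) the second. DESeq2, limma voom and limma on log2(TPM + 1) also called 0 kinesins. In 1 kinesin, Kif20b, a motor of cytokinesis, the groups did not overlap, with 17.1, 14.4, 18.2 and 15.9 CPM on the actuated and 12.6, 13.5 and 12.7 CPM on the static array (log2 fold change 0.34 ± 0.48, edgeR adjusted p = 1), beside 2.1% of all genes. Its SD was 0.49 CPM on the static and 1.65 on the actuated array, against 21.5 at high and 21.8 at low intensity. The p-values here thus carry spread from the other groups. With only the array groups fitted in edgeR, 402 of 14600 genes had an unadjusted p under 0.05, against 56 of 14730 in the main fit. The mitotic median log2 fold change was 0.01 (7 above and 6 below 0, between -0.53 and 0.46) and the transport median 0.04. The smallest p was that of Kif26b, a kinesin without motor activity, with 223, 224, 179 and 241 CPM on the actuated and 209, 186 and 162 CPM on the static array (log2 fold change 0.22 ± 0.15, edgeR adjusted p = 1). Kif13a, an endosomal and lysosomal motor, had 84.4, 82.7, 90.4 and 89.3 against 86.2, 71.2 and 74.5 CPM (0.17 ± 0.13, edgeR adjusted p = 1). Kif15 was at 12.3, 14.9, 22.5 and 17.1 CPM with actuation, with a log2 fold change against the static array of 0.20 ± 0.37 by CPM and -0.39 on log2(TPM + 1), and Kif11 at 19.8, 18.2, 38.2 and 33.5 CPM against 20.6, 22.3 and 39.2 CPM (0.01 ± 0.42). In both array groups the libraries highest for most mitotic kinesins (actuated replicate 3 for 7 of 13, static replicate 4 for 10 of 13) were lowest for most transport kinesins (7 of 8 and 6 of 8).

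The proteins that work beside these motors were read from 2 lists of genes outside the family. The list of mitotic partners holds 16 genes, among them Racgap1, the Aurora kinases and the spindle checkpoint genes Bub1 and Bub1b. All 16 were above control at high intensity (median log2 fold change 1.30), at low intensity (1.32) and on the static array (0.74). At an unadjusted p under 0.05, 15, 14 and 8 of 16 were higher, where 8.67%, 8.57% and 6.1% of all genes were, and 7, 5 and 9 of 16 lay wholly above the controls, beside 2.07%, 1.28% and 4.52% of all genes. At high intensity 4 rose past the adjusted threshold: Bub1b (log2 fold change 1.99 ± 0.39, edgeR adjusted p = 0.0357), the proliferation marker Mki67 (1.31 ± 0.26, edgeR adjusted p = 0.0364), the topoisomerase Top2a (1.30 ± 0.29, edgeR adjusted p = 0.0448) and Cenpe, the kinetochore kinesin whose symbol lies outside the Kif pattern (1.37 ± 0.32, edgeR adjusted p = 0.0496). At low intensity Top2a rose (1.28 ± 0.28, edgeR adjusted p = 0.0372). Of all genes, edgeR called 0.305% higher at high and 0.441% at low intensity. DESeq2 called 7 of the 16 in each treatment, beside 289 and 325 of all 14730 genes called higher. Limma voom called 0, and limma on log2(TPM + 1) 12 and 14, beside 14.9% and 36.2% of all genes called higher. With actuation, 7 of 16 were above and 9 below the static array, 0 had an unadjusted p under 0.05, and edgeR, DESeq2 and limma voom called 0.

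The list of transport partners holds 24 genes, the kinesin light chains, adaptors and the dynein and dynactin subunits of the return route, of which 23 were fitted. At high intensity 21 of 23 were below control by CPM (median -0.20) and 23 of 23 above it on log2(TPM + 1) (median 0.41). At low intensity 20 of 23 were below by CPM (median -0.15) and 23 of 23 above on log2(TPM + 1) (median 0.65). By CPM 8 and 3 of 23 were lower at an unadjusted p under 0.05, beside 7.28% and 6.61% of all genes. In edgeR 0 passed the adjusted threshold in either comparison, where 0.156% of all genes were called lower in each. DESeq2 called 4 and 0 of the 23, beside 178 and 146 of all 14730 genes called lower. Limma voom called 0 and 0 of the 23, beside 0 and 1 of all genes. On log2(TPM + 1) 0 were called at high and 10 of 23, all higher, at low intensity, beside 14.9% and 36.2% of all genes called higher. On the static array 1 of 23 fell by CPM, beside 0.414% of all genes called lower. It was Dync1h1, the heavy chain of cytoplasmic dynein (log2 fold change -0.55 ± 0.11, edgeR adjusted p = 0.0189), with a value of 0.15 on log2(TPM + 1).

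Progenitor marker sums were highest in the libraries with the highest mitotic sums, while neuronal marker sums were low in these and in other treated libraries. The 6 neural progenitor markers (all detected) summed to 183 to 247 CPM in the controls, 231 to 590 CPM at high and 230 to 672 CPM at low intensity. The libraries with the highest mitotic sums, high intensity replicate 3 (505 CPM) and low intensity replicates 1 and 5 (333 and 350 CPM), also had the highest progenitor sums of their groups (590, 515 and 672 CPM). The 6 neuronal markers summed to 2328, 2578 and 2763 CPM in those 3 libraries, below the 3364 to 3606 CPM of the controls. High intensity replicates 1 and 2 (2654 and 2918 CPM) and low intensity replicate 2 (2904 CPM) also lay below every control. Low neuronal sums were thus not particular to the libraries of highest mitotic sum. Single progenitor markers did not move as one, with 3 above and 3 below control and 1 at an unadjusted p under 0.05 in each treatment, while 6 of 6 neuronal markers were below control by CPM, 4 at high and 2 at low intensity at an unadjusted p under 0.05, beside 7.28% and 6.61% of all genes. Nes, a progenitor filament gene, rose at low intensity (log2 fold change 1.43 ± 0.33, edgeR adjusted p = 0.0443), and Elavl4, a neuronal RNA-binding protein gene, fell there (-0.59 ± 0.13 by CPM, edgeR adjusted p = 0.0370, and -0.05 on log2(TPM + 1)). In limma voom neither passed (adjusted p = 0.219 and 0.149).

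The 6 fibroblast markers summed to 330 to 871 CPM in the controls, 881 to 2353 CPM at high and 223 to 2533 CPM at low intensity, and were highest in high intensity replicate 2 and low intensity replicate 2, which were not the libraries of highest mitotic sum. The 6 skeletal muscle markers summed to 8.46 to 101 CPM in the controls, 22.0 to 182 CPM at high and 9.54 to 164 CPM at low intensity, with Myod1 and Myog at 0 in every control and Ckm at 0 in every high intensity library. Their sums were highest in high intensity replicate 2 and low intensity replicate 5. The low intensity library also had the highest mitotic sum of its group, and the high intensity library did not. The 4 pluripotency markers stayed between 0 and 7.57 CPM in all libraries. On the static array the 6 astrocyte and oligodendrocyte markers summed to 2494 to 3270 CPM, above the 1442 to 2058 CPM of the controls. Their sums were 2015 to 3537 CPM on the actuated array, 1718 to 1950 CPM at high and 1511 to 2999 CPM at low intensity. The 2999 CPM were those of low intensity replicate 1. By fold change against control, 6 of 6 were higher on the static array, 6 of 6 at low and 5 of 6 at high intensity. Slc5a7, the choline transporter of motor neurons, fell on the static array (log2 fold change -1.88 ± 0.31 by CPM, edgeR adjusted p = 0.00392, and -0.80 on log2(TPM + 1)). The part of these markers in the kinesin differences was not tested.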

How the data were processed

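For each of 26 libraries the authors deposited estimated counts per gene, already rounded to integers, and TPM in a separate file with column sums of at most 1000000. The submitters' processing notes list BWA 0.7.12-r1039, bedtools 2.25.0, STAR and Salmon, and the builds mm10, hg19 and GRCm39, with no role, so which made which table is not given in the sources used here. Strand use and the treatment of near-identical copies are not stated either. Library fragments of ribosomal RNA were cleaved before the last amplification, per the labels' protocols. No molecular identifiers are named, so limits for a count of 0 (3 counts, 0.228 to 1.93 CPM by library on totals not scaled between libraries) cover counting error only.

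The 21 libraries with over 1000000 protein-coding counts (control 5, high 4, low 5, static 3, actuated 4) entered 1 edgeR model (version 4.0.16, R 4.3.3) with a coefficient per group, filterByExpr (14730 genes), TMM factors and quasi-likelihood F-tests, with Benjamini-Hochberg adjustment over all genes and a threshold of 0.05. CPM values are TMM-scaled, and TPM was used to compare genes. SE is the absolute log2 fold change over the root of F. On simulated data, the test recovered 29% (actuated against static) to 57% (low intensity against control) of 2-fold and 74% (static array against control) to 80% (actuated against static) of 4-fold changes. Alternatives used DESeq2 1.42.0 and limma 3.58.1, among others. Members, lists and roles were chosen with earlier results of these data known. Values are named for Kif11, Kif20a, Kif23, Kif1a, Kif5a and Kif5c, members past the threshold, the 2 of smallest p in each comparison, and the highest and lowest control TPM of each role.

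Replicate numbers were checked for pairing. The correlation of same-numbered libraries' deviations ran from -0.225 to 0.182, and in no comparison did every pair exceed 0.1, so libraries were not paired. For actuated against static 2 of the 3 pairs did exceed it, so a pairing of those 2 groups is not excluded.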

Additional observations from a re-analysis of the deposited data

Results flagged for a closer look

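The mean log2 CPM of the mitotic kinesins was 5.05 in high intensity replicate 3, far above the other 3 libraries of that group, which lay between 3.27 and 3.55. It stood apart by Dixon's test at the 95% level, the 1 such case among 56 sets of group values tested. Chance alone flags about 5% of such sets, so a single flag is no more than chance would give. That library had 2557540 counts in all, within the range of its group.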

How the results depend on the processing

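The number of kinesins called varied with the statistical setting. At high intensity against control edgeR called 1 kinesin, all 26 libraries gave 0, fitting only the groups compared 0, limma voom 0, DESeq2 7, no filter on low counts 11 and limma on log2(TPM + 1) 10, and leaving out 1 library gave 0 to 8, with 8 without high intensity replicate 6. Without that replicate edgeR called 397 of all 14694 genes, against 68 of 14730 in the main fit. At low intensity against control edgeR called 1, and the same settings gave 0, 0, 0, 5, 7 and 18, with 0 to 4 on leaving out 1 library and 4 without low intensity replicate 3. Leaving out that replicate gave 264 calls over all 14692 genes, against 88 of 14730 in the main fit. On the static array against control edgeR called 0, no filter on low counts gave 2 and log2(TPM + 1) gave 4. Leaving out 1 library gave 0 there, and every setting gave 0 for actuated against static and for high against low intensity.

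On log2(TPM + 1), Kif1a turned to 0.32 at high and 0.66 at low intensity, Kif5a to 0.084 and 0.40, and Kif5c to 0.14 and 0.50. Over its 31 alternatives Kif15 stayed above control, with edgeR, DESeq2 or limma adjusted p from 3.16e-05 to 0.335 at high and 0.000324 to 0.354 at low intensity, and the call was lost in 16 and 18 of them. The cause was not tested.

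With all 26 libraries, the shallow ones included, the mitotic minus transport difference was 2.65 for low intensity against control, -1.18 for high against low intensity and 1.70 for static array against control, and on log2(TPM + 1) the last was 0.43. The values of 2.65 and -1.18 include low intensity replicate 6, which held 1536 counts in all and 0 on kinesins. The value of that library rests on no kinesin count. Leaving out 1 library gave 1.08 to 1.81 for high intensity, 1.08 to 1.56 for low intensity and 0.78 to 1.14 for the static array against control, -0.24 to 0.49 for high against low intensity and -0.19 to 0.16 for actuated against static.

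Over all genes, edgeR called 68 at high intensity, 88 at low intensity and 105 on the static array against control. DESeq2 called 467, 471 and 381, limma voom 0, 1 and 151, all 26 libraries 6, 4 and 2, only the groups compared 17, 21 and 42, no filter on low counts 700, 660 and 459 of 37248 genes, and log2(TPM + 1) 2211, 5349 and 672. For actuated against static and high against low intensity, edgeR called 0 and 0, DESeq2 5 and 41, no filter 40 and 126 and log2(TPM + 1) 0 and 3.

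Same-numbered libraries were not paired, as in no comparison did the deviations of every pair correlate above 0.1, although 2 of 3 did for actuated against static. With the replicate block, 0 kinesins were called at high and 0 at low intensity against control, and over all genes 2 and 8, with 36 on the static array. The depth of the shallowest library used, 1551334 counts, limits what can be seen of the kinesins at the cilium and of Kif2b, Kif12, Kif19b and Kif28.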
